A study of Homo sapiens with 28 samples.

Results

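The sites described here are CTCF peaks of GP5d cells under control siRNA that overlap, by at least 1 bp, a RAD21 peak, a SMC3 peak and a H3K4me1 peak of the same treatment. The sites were thus chosen by measured values, the presence of peaks in these 4 control lists, so their control CTCF, RAD21, SMC3 and H3K4me1 values are a description. The rule found 6862 such sites, 15.6% of the 44027 control CTCF peaks and 24.8% of the 27720 that overlap both cohesin subunits. GP5d is an established human colon adenocarcinoma line, here transfected with 50 nM of siRNA and harvested after 72 h. The control group received a neutral non-targeting siRNA, and the other group, written siRAD21, an siRNA against the cohesin subunit RAD21. Chromatin immunoprecipitation and sequencing (ChIP-seq) recorded 11 targets in each group, with 1 library per target and siRNA. No difference between the siRNAs therefore has a replicate check, and every interval below is a 95% interval for counting error only. The groups follow the titles and descriptions. A separate siRNA tag in the labels carries rising numbers after the RAD21 stem and was not used.

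Cohesin is a protein ring, built on subunits that include RAD21 and SMC3, that keeps sister chromatids paired and forms loops by extruding DNA. CTCF binds DNA through zinc fingers and halts extrusion, so that cohesin accumulates beside it, and NIPBL is the protein that loads cohesin. Monomethylation of histone H3 at lysine 4 (H3K4me1) is found on enhancers and beside active promoters, so a CTCF-cohesin site in such chromatin can lie next to, or within, a regulatory element occupied by other factors. Of the 6 other factors, HNF4A is a nuclear receptor of gut and liver epithelium, KLF5 a zinc finger factor of intestinal crypts, JUND an AP-1 protein and MYC a growth regulator. REST represses neuronal genes in other tissues, and RFX2 belongs to a family that controls genes of cilia.

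The authors called peaks separately for each library, and a target counts as present at a site when one of its peaks overlaps the CTCF peak. "Kept" means that a target present under control siRNA was also present under siRAD21, and "lost" that it was not listed there. A peak below the calling threshold is also "lost". Filtered tags ranged from 3629966 to 19926326 in the control libraries and from 1747770 to 15263937 in the siRAD21 libraries, which were the shallower for 9 of 11 targets. The antibody number that the labels give for H3K4me1 is known for histone H3 of any modification, and that for MYC is known for a mouse antibody where the title says rabbit, so both names rest on the titles. The control lists of JUND and NIPBL held no peak at a false discovery rate (FDR) under 5%. The size of the RAD21 knockdown is not given, because neither its RNA nor its protein was analysed here.

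The sites were strong members of their lists, and cohesin lay close to CTCF in them. The median CTCF peak had a strength of 621 on the −10 × log10 p scale of the peak caller, against 295 over the whole CTCF list, and a width of 1879.5 bp. The strongest RAD21 and SMC3 peaks at the sites had medians of 358 and 365, against 202 and 181 over their lists. Sites outside H3K4me1, which are the other 20858 CTCF peaks with both subunits, had lower medians of 536 for CTCF, 291 for RAD21 and 285 for SMC3. Their median fold enrichment was higher instead, at 27.2 outside and 26.3 inside for CTCF, 18.45 and 17.7 for RAD21 and 16.6 and 15.6 for SMC3. The H3K4me1 peaks at the sites were broad, with a median width of 2773 bp, and covered the CTCF summit at 6094 sites (88.8%). They were 6684 distinct peaks, 10.9% of the H3K4me1 list, and 171 of them held 2 or more sites, with 5 at most, so neighbouring sites are not independent.

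Summits separated the targets by their distance from CTCF. The RAD21 summit lay a median of 35 bp from the CTCF summit and that of SMC3 37 bp, and 93.6% of both lay within 250 bp. NIPBL, where present, lay at a median of 171 bp. The factor with the nearest summits was MYC, at 289.5 bp, ahead of JUND at 316 bp, RFX2 at 362 bp and KLF5 at 362.5 bp. HNF4A at 520 bp, REST at 553 bp and H3K4me1 at 591 bp lay farther out. Only 31.3% of the HNF4A peaks (28.4 to 34.4) and 46.8% of the MYC peaks (44.4 to 49.1) had their summit within 250 bp, so a factor peak at a site is often beside the CTCF summit rather than on it.

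**Figure D1:**
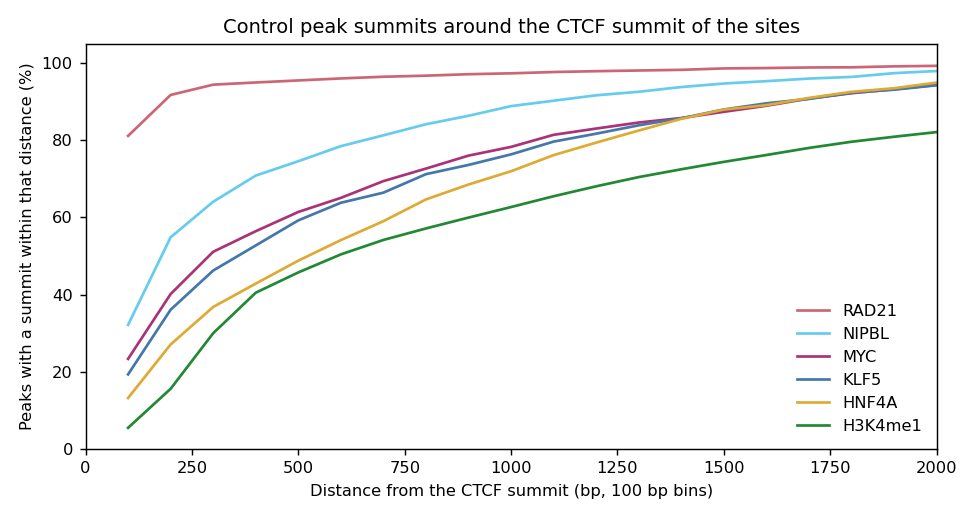
Cumulative share of control peaks (y axis, percent) whose summit lies within a given distance of the CTCF summit of the site (x axis, bp), for 6 targets. The RAD21 curve reaches 81.2% in the first 100 bp, whereas the H3K4me1 curve, whose median is 591 bp, climbs throughout.

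Values just inside and just outside the H3K4me1 threshold of the rule are given for description. The 89 sites with their H3K4me1 overlap at 100 bp or less had a factor peak at 16.9%, and the 109 CTCF-cohesin peaks with a gap to H3K4me1 of 100 bp or less at 13.8%. RAD21 was kept at 60.7% of the first and 65.1% of the second. With an overlap of 1000 bp or less, the 974 sites inside had a factor at 22.1%. With a gap of 1000 bp or less, the 1086 peaks outside had one at 10.9%. RAD21 was kept at 53.2% inside and 62.9% outside, and CTCF at 72.5% and 82.4%. The overlap counts shared bases and cannot exceed the width of either peak. Narrow peaks wholly within H3K4me1 can thus be among the sites inside, and overlap and gap are not like measures. The median CTCF strength was 434 inside and 642 outside. The site with the smallest overlap, 1 bp, was chr22:38749972-38751807 (hg18, the build of the files throughout), and that with the smallest gap, 2 bp, was chr3:144130002-144131301. CTCF had a control strength of 1376 at the first and 370 at the second.

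After RAD21 siRNA, CTCF stayed listed at most of these sites, RAD21 at more than SMC3, and each was kept more often at the stronger control peaks. CTCF was kept at 5551 of 6862 sites (80.9%, 79.9 to 81.8), beside 63.1% of all control CTCF peaks. RAD21 was kept at 4211 sites (61.4%, 60.2 to 62.5), beside 54.7% of all control CTCF peaks with RAD21. SMC3 was kept at 2891 sites (42.1%, 41.0 to 43.3), beside 35.1%. H3K4me1 was kept at 5094 sites (74.2%, 73.2 to 75.3), beside 78.7% of all control CTCF peaks with H3K4me1. All 4 targets were at 100% under control siRNA by the rule, where 67.4% of all control CTCF peaks had RAD21, 68.8% SMC3 and 25.4% H3K4me1, so only the share found again is a measurement. The siRAD21 library held 0.346 times the filtered tags of the control library for CTCF, 0.615 for RAD21, 0.531 for SMC3 and 0.528 for H3K4me1. CTCF thus had the highest kept share of the 4 with the lowest ratio of tags. It also had the strongest control peaks, with a median of 621 against 358 for RAD21, 365 for SMC3 and 256 for H3K4me1. The IgG library used for CTCF held 0.841 times the tags under siRAD21, and that for RAD21, SMC3 and H3K4me1 0.460 times. The part of depth in each share was not tested.

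**Figure D2:**
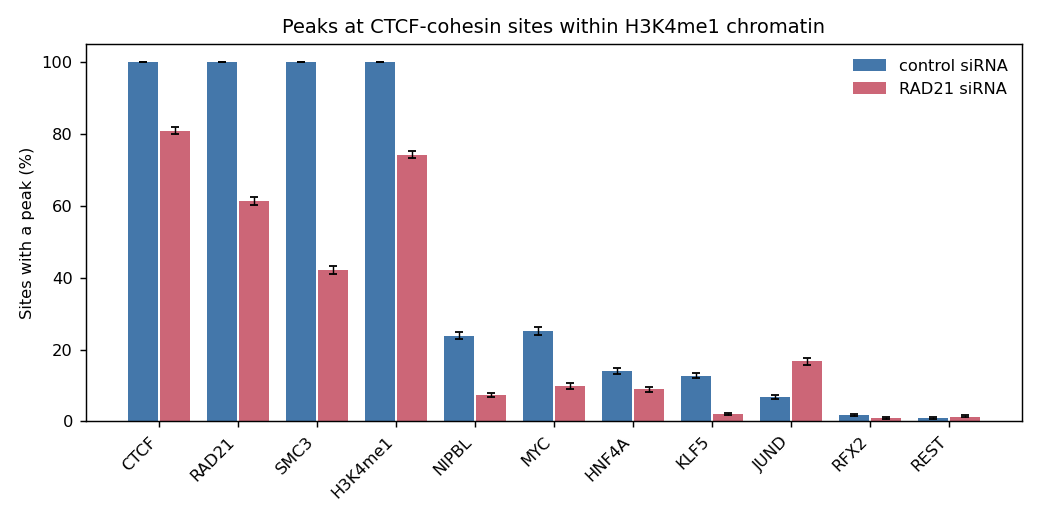
Share of the 6862 sites with a peak of each target (y axis, percent) under control siRNA (blue) and RAD21 siRNA (red), with exact 95% intervals for counting error from 1 library each. The first 4 targets are at 100% under control siRNA by the rule or by definition, and JUND and REST are the only targets with a higher share under RAD21 siRNA.

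The kept share followed control strength across the sites. In the weakest of 5 equal groups of the sites by RAD21 strength (50.1 to 128), RAD21 was kept at 20.4% (18.3 to 22.6), and in the strongest (875 to 3220) at 97.3% (96.3 to 98.1). For SMC3 the same ends were 8.38% (6.97 to 9.98) and 84.9% (82.9 to 86.8), and for CTCF 45.3% and 99.7%. H3K4me1 ran from 41.8% to 96.1%. For each of these 4 targets the share climbed at every step from the weakest group to the strongest.

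The joint state of CTCF, RAD21 and SMC3 was read at each site. All 3 were found under siRAD21 at 2570 sites (37.5%), CTCF with RAD21 alone at 1300 (18.9%) and CTCF with SMC3 alone at 155 (2.26%). CTCF without either subunit was found at 1526 sites (22.2%, 21.3 to 23.2). None of the 3 was listed at 928 (13.5%), and a cohesin subunit without CTCF at 383 (5.58%). The CTCF-cohesin sites outside H3K4me1 had all 3 at 31.5%, CTCF with RAD21 alone at 19.3% and CTCF with SMC3 alone at 2.53%. CTCF without either subunit was at 23.8% of them, none at 16.3% and a subunit without CTCF at 6.47%. Within H3K4me1, median control RAD21 strength stepped down along these states, from 787 where all 3 stayed to 378 with CTCF and RAD21, 171 with CTCF alone and 121 with none. The H3K4me1 strength ran the other way, from 218 to 239, 268 and 387. H3K4me1 itself was kept at 73.4% of the sites with all 3, 74.7% of those with CTCF alone and 74.2% of those with none. In the smaller states its share was 81.9% with CTCF and SMC3 (127 of 155 sites), 74.7% with RAD21 only, 68.5% with RAD21 and SMC3 (59.6 to 76.6) and 83.3% with SMC3 only (68.6 to 93.0).

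Single sites show the states. At chr12:50703760-50707106, the strongest site with all 3 kept and a factor peak, CTCF had a strength of 3228 under control siRNA and 2276 under siRAD21, RAD21 2342 and 604, and SMC3 3019 and 526. H3K4me1 at that site had 481 and 849. NIPBL, KLF5 and MYC were listed there under control siRNA only, whereas HNF4A and JUND were listed under both. At chr17:76162942-76164986, CTCF had 3100 and 661, while RAD21 at 1164, SMC3 at 1337, MYC at 149, NIPBL at 68.5 and H3K4me1 at 75.1 were in the control lists alone. Cohesin peaks above their lists' medians were thus lost at a site where CTCF stayed.

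Sites without a control factor peak gave the same range of states. At chr11:2508106-2511815, all 3 were kept, with RAD21 at 2776 and 1170, and HNF4A (58.6) and JUND (112) were listed under siRAD21 only. At chr6:20234006-20236834, CTCF had 2706 and 767 and H3K4me1 204 and 222, while RAD21 (317) and SMC3 (418) were lost. At chr7:90501136-90502767, CTCF (1007), RAD21 (1114), SMC3 (800) and H3K4me1 (94.5) were all in the control lists only. The strongest site with cohesin but no CTCF under siRAD21, chr16:80529823-80532986, did have a control factor peak, JUND at 57.5, which was lost. CTCF had 1585 there under control siRNA, and RAD21 had 838 and 120. These strengths are the authors' values for each peak, and those of different libraries are not on one scale.

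CTCF was kept slightly more often inside than outside H3K4me1, while the direction for cohesin depended on how strength was matched. Plain shares were lower outside H3K4me1, at 77.2% for CTCF, 56.7% for RAD21 and 36.5% for SMC3. Averaged over 5 strata of each protein's own control strength, sites inside minus outside differed by 2.08 percentage points for CTCF (1.15 to 3.00), -0.0965 for RAD21 (-1.18 to 0.990) and -0.885 for SMC3 (-2.00 to 0.229). With strata of fold enrichment in place of p, the RAD21 difference was 6.70 (5.54 to 7.86) and that of SMC3 6.67 (5.48 to 7.87). Among the sites themselves, RAD21 was kept at 61.4% where H3K4me1 covered the CTCF summit and at 61.2% where it did not.

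The 6 factors were found at these sites much more often than at CTCF-cohesin sites outside H3K4me1. Under control siRNA, 2669 sites (38.9%, 37.7 to 40.1) had a peak of at least 1 factor, beside 14% of all control CTCF peaks and 5.48% (5.18 to 5.80) of the sites outside. At like CTCF strength the difference between inside and outside was 33.0 percentage points (31.8 to 34.2), and 16.0 (14.9 to 17.0) when the factor summit had to lie within 250 bp of the CTCF summit. MYC was the most frequent, at 1724 sites (25.1%, beside 8.35% of all control CTCF peaks), and was followed by HNF4A at 957 (13.9%, beside 3.8%), KLF5 at 876 (12.8%, beside 4.09%) and JUND at 460 (6.70%, beside 1.95%). RFX2 was present at 119 sites (1.73%, beside 0.915%). REST was the exception, with 65 sites (0.947%, beside 0.97%), a share that differed from that outside by -0.0536 points (-0.319 to 0.212).

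CTCF peaks within H3K4me1 but without cohesin also carried factors often. The 3072 control CTCF peaks within H3K4me1 that had neither subunit had a factor peak at 40.8% (39.0 to 42.6). At like CTCF strength the sites with cohesin had a higher share, by 3.66 points (1.00 to 6.31). That difference was 8.58 for HNF4A (6.75 to 10.4), 6.30 for KLF5 (4.46 to 8.14), 3.45 for JUND (2.14 to 4.77) and 3.08 for MYC (0.627 to 5.53), and it had the opposite sign for RFX2, at -1.36 (-2.16 to -0.561). Without matching for strength the sign was the opposite for any factor, at -1.89 (-3.98 to 0.193), and for MYC, at -1.18 (-3.04 to 0.686), and the interval of KLF5 included 0 (-0.438 to 2.34). All these values come from the same control libraries.

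The loader NIPBL was at 1637 sites (23.9%, 22.9 to 24.9), beside 6.8% of all control CTCF peaks, and at 2.91% of the sites outside H3K4me1. Its share was 14.5 points higher than at the cohesin-free CTCF peaks within H3K4me1 (12.4 to 16.6). NIPBL went with the factors. It was present at 11.2% of the 4193 sites without a factor (10.2 to 12.2), 30.9% of the 1619 with 1, 54.0% of the 658 with 2, 76.4% of the 305 with 3 and 90.8% of the 87 with 4 or 5 (82.7 to 95.9). Under siRAD21 it was kept at 230 sites (14.1%, 12.4 to 15.8), beside 17.5%, and was listed at 269 sites that had lacked it (5.15%, beside 2.24%). Its siRAD21 library held 0.352 times the tags of the control library, and the part of depth was not tested.

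Factors shared sites. MYC and KLF5 were together at 539 sites, MYC and HNF4A at 477, MYC and JUND at 294, and HNF4A and KLF5 at 283. MYC was alone at 804 of its 1724 sites, HNF4A at 378 of 957, KLF5 at 252 of 876 and JUND at 103 of 460. Most sites of each of these 4 factors thus had another factor as well. Sharing was not counted at other CTCF peaks, so these counts do not show whether it is particular to these sites. REST was alone at 32 of 65 sites and RFX2 at 50 of 119.

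After RAD21 siRNA, most peaks of each factor other than REST were not listed at the sites. MYC was kept at 454 sites (26.3%, 24.3 to 28.5, beside 32%), HNF4A at 368 (38.5%, 35.4 to 41.6, beside 39.3%) and KLF5 at 87 (9.93%, 8.03 to 12.1, beside 11.4%). JUND was kept at 188 (40.9%, 36.3 to 45.5, beside 42.8%), REST at 37 (56.9%, 44.0 to 69.2, beside 60.4%) and RFX2 at 23 (19.3%, 12.7 to 27.6, beside 17.6%). The interval of MYC lay below its share at all control CTCF peaks, which include these sites, and those of the other 5 factors included theirs. At the CTCF-cohesin sites outside H3K4me1, MYC was kept less often still, at 19.1% (15.8 to 22.8). HNF4A (32.7%), KLF5 (4.52%), JUND (20%) and RFX2 (14.0%) also had lower shares there, and REST (58.9%) a higher one. These shares were not matched for control strength. At least 1 factor was kept at 948 of the 2669 sites within H3K4me1 that had one (35.5%, 33.7 to 37.4). That share was not computed over all control CTCF peaks. The ratio of tags between siRAD21 and control was 0.355 for KLF5, 0.481 for RFX2, 0.558 for HNF4A, 0.619 for REST and 1.02 for MYC, and its part was not tested. In the siRAD21 MYC library 64% of the tags were repeats, the highest among the siRAD21 libraries.

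New factor peaks were mainly those of JUND. JUND was listed under siRAD21 at 958 of the 6402 sites that had lacked it (15.0%, 14.1 to 15.9), beside 6.24% of all such control CTCF peaks, from a library with 2.02 times the tags of its control. MYC was gained at 222 sites (4.32%, beside 1.95%) and HNF4A at 243 (4.12%, beside 1.81%). KLF5 was gained at 49 (0.819%, beside 0.4%), REST at 57 (0.839%, beside 0.491%) and RFX2 at 36 (0.534%, beside 0.259%). Of the 4193 sites without a control factor, 533 had at least 1 under siRAD21 (12.7%, 11.7 to 13.8), and 289 (6.89%) if JUND is left out. Neither share was computed over all control CTCF peaks, so neither can be compared with theirs.

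In plain shares, cohesin was kept less often at the sites with many factors, and H3K4me1 more often. For RAD21 the share was 63.3% of the sites without a factor (61.8 to 64.7), 61.8% with 1, 57.3% with 2, 48.9% with 3 and 36.8% with 4 or 5 (26.7 to 47.8). SMC3 was kept at 43.1%, 43.1%, 39.7%, 34.4% and 24.1% of the same groups, and CTCF at 81.7%, 83.1%, 77.1%, 69.8% and 67.8%. H3K4me1 went the other way, from 66.1% without a factor to 95.4% with 4 or 5. Control strength moved with the number of factors too. From 0 to 3 factors, the median strength ran from 387 to 251 for RAD21, from 657 to 358 for CTCF and from 195 to 922 for H3K4me1. With 4 or 5 factors it was 262 for RAD21, 339 for CTCF and 1059 for H3K4me1. Median SMC3 strength was 381 without a factor, 289 with 3 and 280 with 4 or 5. The intervals of the RAD21 kept share with 3 factors (43.1 to 54.6) and with 4 or 5 (26.7 to 47.8) overlapped. The median width of the CTCF peak stayed between 1858 and 1968 bp in all groups.

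**Figure D3:**
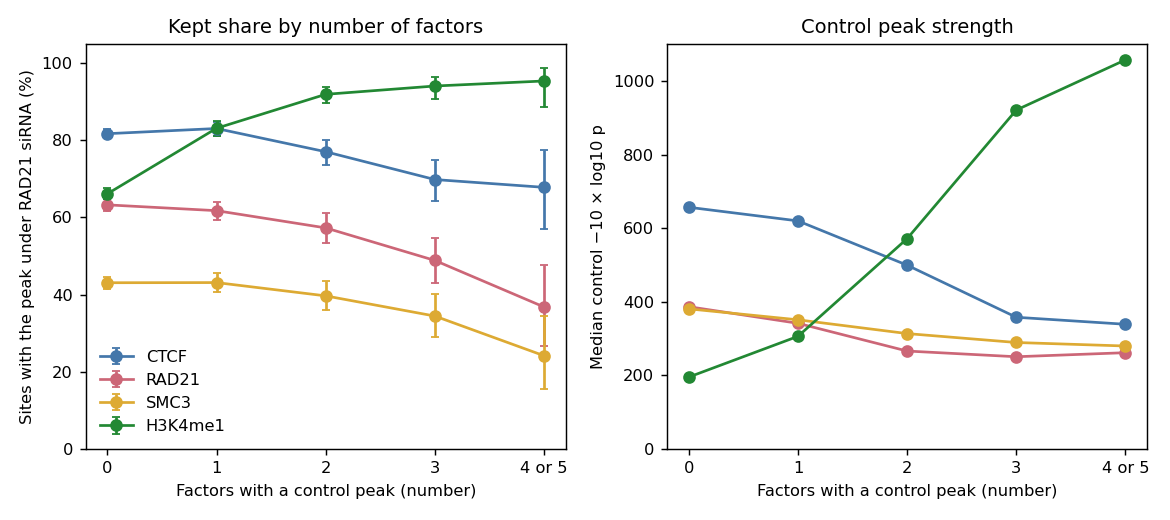
Left, share of sites at which each target was kept under RAD21 siRNA (y axis, percent, exact 95% intervals) by the number of factors with a control peak (x axis). Right, median control strength (−10 × log10 p) of the same peaks. It is lower for CTCF, RAD21 and SMC3 and higher for H3K4me1 where factors were present. For RAD21 it was 251 with 3 factors and 262 with 4 or 5.

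At like strength by p, the intervals of the cohesin differences between sites with and without any factor included 0, but not in every alternative. RAD21 was kept at 1558 of 2669 sites with a factor (58.4%) and 2653 of 4193 without (63.3%), a difference of -0.766 points at like RAD21 strength (-2.71 to 1.17). SMC3 was kept at 40.7% and 43.1%, a difference of -1.04 at like SMC3 strength (-3.03 to 0.948). For CTCF the difference was 1.95 (0.304 to 3.59), and for H3K4me1, kept at 87.0% with a factor and 66.1% without, it was 11.6 (9.80 to 13.5). With strata of fold enrichment, the RAD21 and SMC3 differences were 3.13 (1.07 to 5.19) and 3.61 (1.47 to 5.75), so their sign depends on the measure of strength. With MYC not counted as a factor, the differences were -2.77 for RAD21 (-4.91 to -0.632), -2.79 for SMC3 (-4.96 to -0.620) and -1.47 for CTCF (-3.34 to 0.402), and by summits within 250 bp that of SMC3 was -3.72 (-6.20 to -1.24).

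**Figure D4:**
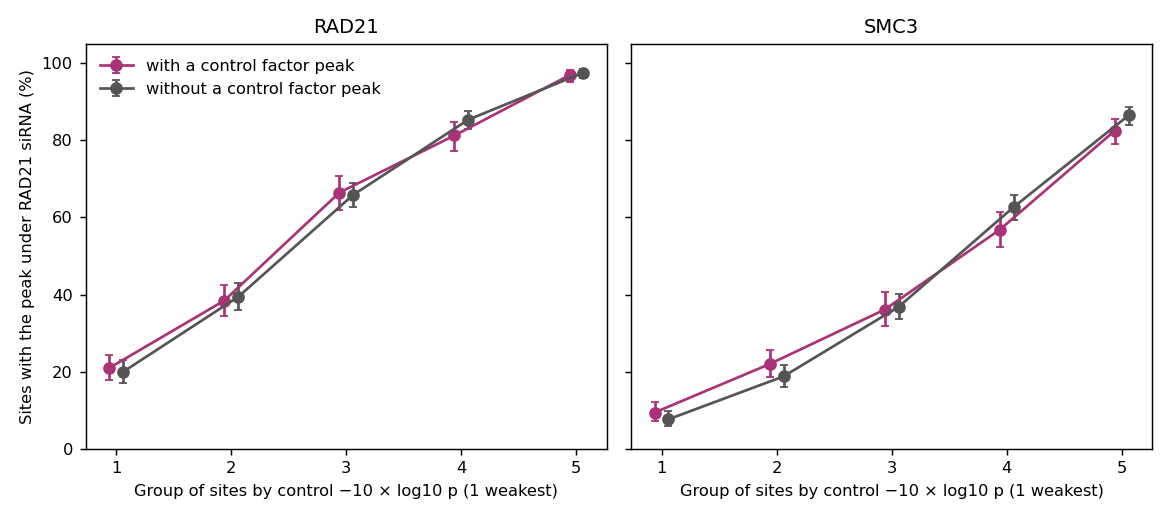
Share of sites at which RAD21 (left) and SMC3 (right) were kept under RAD21 siRNA (y axis, percent, exact 95% intervals), by 5 equal groups of the sites in control strength of that protein (x axis, 1 weakest), with and without a control factor peak. In the weakest group by RAD21 strength, RAD21 was kept at 21.0% with a factor and 19.9% without, and in the strongest at 96.9% and 97.6%.

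The sites with 3 or more factors differed from those with none also at like strength by p. They kept RAD21 at 181 of 392 (46.2%), a difference of -8.79 points from sites without a factor (-13.0 to -4.54), and SMC3 at 126 (32.1%), a difference of -6.25 (-10.4 to -2.10). For CTCF the difference was -2.08 (-6.03 to 1.86), and for H3K4me1 9.55 (6.82 to 12.3). With strata of fold enrichment the RAD21 difference was -2.48 (-6.99 to 2.03) and that of SMC3 0.951 (-3.44 to 5.35), and at FDR under 5% that of SMC3 was -6.17 (-12.5 to 0.107). By summits within 250 bp the H3K4me1 difference was 2.51 (-4.01 to 9.03).

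By factor, JUND sites had the lowest cohesin shares. Of the 460 sites with JUND, 236 kept RAD21 (51.3%), as did 62.1% of the others, a difference of -7.38 points at like strength (-11.3 to -3.48). SMC3 was kept at 33.9% and 42.7%, a difference of -7.50 (-11.4 to -3.66). In each alternative run for them, which could not include FDR under 5%, both JUND differences stayed below 0 with their intervals. With HNF4A, RAD21 was kept at 53.3% and SMC3 at 37.0%, differences of -4.90 (-7.65 to -2.16) and -3.23 (-5.99 to -0.469), which were -1.92 (-4.82 to 0.980) and -0.0667 (-2.99 to 2.86) with strata of fold enrichment. The differences by factor were not separated from the number of factors at a site. At the 103 sites with JUND alone, RAD21 was kept at 55.3% (45.2 to 65.1) and SMC3 at 34.0% (24.9 to 44.0). Sites without a factor kept them at 63.3% and 43.1%. RAD21 was kept at 59.0% with HNF4A alone (53.8 to 64.0) and 61.5% with KLF5 alone (55.2 to 67.5).

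For the other factors and NIPBL, the differences depended on the measure of strength or had intervals that included 0. With KLF5, RAD21 was kept at 54.7%, a difference of -3.11 (-5.97 to -0.254) that was 1.03 with strata of fold enrichment and 0.270 at FDR under 5%. With MYC, RAD21 was kept at 57.1%, a difference of -0.887 (-3.08 to 1.31) that was 3.01 (0.689 to 5.32) with strata of fold enrichment. At the 65 REST sites RAD21 was kept at 78.5%, a difference of 8.14 (-0.692 to 17.0), and SMC3 at 46.2%, a difference of -5.52 (-16.2 to 5.13). At the 119 RFX2 sites the differences were 5.04 for RAD21 (-2.43 to 12.5) and 5.53 for SMC3 (-2.17 to 13.2). With strata of fold enrichment, RAD21 differed by 10.5 with REST (1.48 to 19.6) and by 10.5 with RFX2 (2.78 to 18.2), and SMC3 by 9.04 with RFX2 (0.935 to 17.1). With NIPBL, RAD21 was kept at 61.9% and SMC3 at 44.3%, differences of -3.97 (-6.13 to -1.81) and -4.75 (-6.98 to -2.51), which without strata were 0.756 and 2.91. With strata of fold enrichment these NIPBL differences were -0.158 (-2.45 to 2.14) for RAD21 and -0.430 (-2.83 to 1.97) for SMC3.

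**Figure D5:**
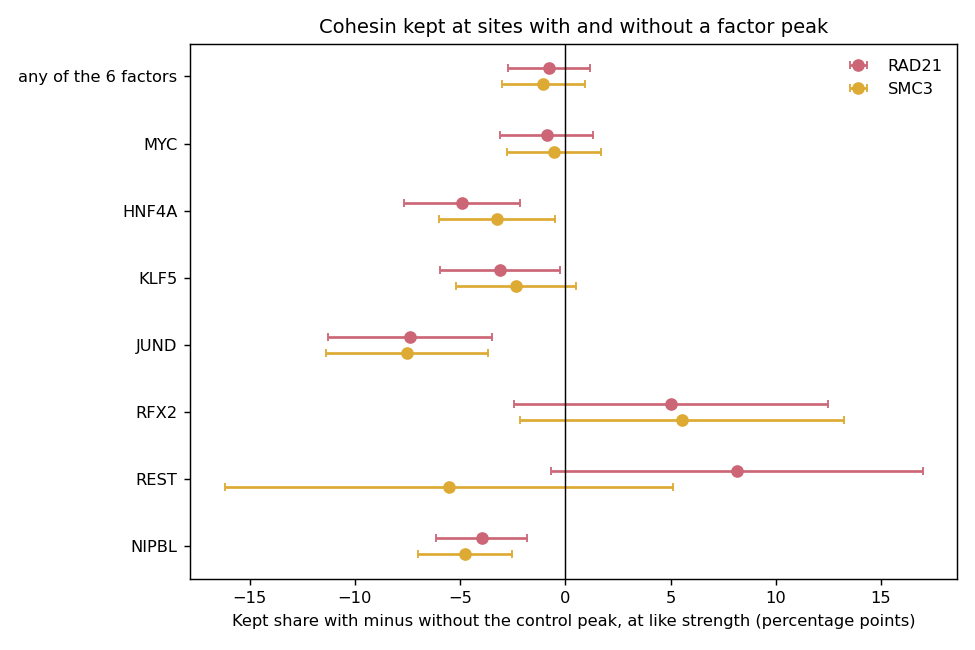
Difference in the share of sites at which RAD21 (red) and SMC3 (yellow) were kept, sites with minus sites without a control peak of the factor named on the y axis, at like control strength by p (x axis, percentage points, 95% intervals for counting error). Both JUND points lie below 0, at -7.38 and -7.50, and all points share the same RAD21 or SMC3 libraries.

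Outside H3K4me1, sites with a factor kept RAD21 and CTCF more often than those without, and the result for SMC3 depended on the setting. For RAD21 the shares were 72.7% of the 1144 sites with a factor and 55.7% of the others, a difference of 4.59 points at like strength (2.38 to 6.80). For CTCF it was 7.12 (5.57 to 8.66) and for SMC3, kept at 52.1% and 35.6%, 2.07 (-0.476 to 4.62). Alternatives were added after seeing the data, and in each the RAD21 and CTCF intervals stayed above 0. That of SMC3 was 8.71 (6.02 to 11.4) with strata of fold enrichment and 3.18 (0.752 to 5.60) at FDR under 5%. With 20 strata it was 0.482 (-2.01 to 2.97) and by summits 0.417 (-2.79 to 3.62). With strata common to both sets, the difference inside minus that outside was -5.22 for RAD21 (-8.16 to -2.27), -5.22 for CTCF (-7.47 to -2.97) and -2.70 for SMC3 (-5.93 to 0.524). The difference in RAD21 and CTCF between sites with and without a factor was thus higher outside H3K4me1 than within it.

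MYC, HNF4A and JUND were kept more often where RAD21 was kept. MYC was kept at 297 of 984 sites with RAD21 kept (30.2%) and 157 of 740 with RAD21 lost (21.2%), a difference of 9.90 points at like MYC strength (5.98 to 13.8). The difference was 9.14 for HNF4A (3.89 to 14.4), 10.8 for JUND (2.06 to 19.6) and 4.50 for KLF5 (0.744 to 8.26). For REST it was 18.9 (-4.76 to 42.6) and for RFX2 11.5 (-1.09 to 24.1), on few sites. Without strata the intervals of HNF4A (-1.17 to 11.1) and KLF5 (-0.0221 to 7.79) included 0. NIPBL differed by 0.0188 (-3.39 to 3.43) at like NIPBL strength and by -1.42 (-4.92 to 2.08) without strata. With SMC3 kept in place of RAD21 kept, the difference was 11.9 for MYC (7.81 to 16.0), 12.3 for HNF4A (6.78 to 17.9) and 13.0 for JUND (3.74 to 22.3). It was 1.94 for KLF5 (-2.03 to 5.91), 7 for REST (-13.4 to 27.4) and 2.37 for RFX2 (-10.5 to 15.2). H3K4me1 was kept at 73.7% with RAD21 kept and 75.1% with RAD21 lost, a difference of 2.57 at like H3K4me1 strength (0.686 to 4.46) that was -1.42 without strata.

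Cohesin and factor could also part. Of the 1724 MYC sites, 18.9% had both MYC and a cohesin subunit under siRAD21, 42.2% cohesin without MYC, 7.48% MYC without cohesin and 31.5% neither. HNF4A without cohesin was found at 143 of its 957 sites (14.9%, 12.7 to 17.4) and JUND without cohesin at 69 of 460 (15.0%, 11.9 to 18.6). KLF5 without cohesin was found at 29 of 876 (3.31%), while cohesin without KLF5 was found at 51.5%. Some factor peaks were thus listed under siRAD21 at sites with no listed cohesin peak. An example is chr6:151048039-151049953, where CTCF (787), RAD21 (85.0) and SMC3 (161) were in the control lists only and HNF4A had a strength of 88.0 under control siRNA and 98.1 under siRAD21.

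New factor peaks were also more frequent where RAD21 was kept. JUND was gained at 687 of 3975 sites with RAD21 kept (17.3%) and 271 of 2427 with RAD21 lost (11.2%), a difference of 14.9 points at like RAD21 strength (12.8 to 17.1). The difference was 5.88 for MYC (4.48 to 7.29) and 5.21 for HNF4A (3.85 to 6.56). It was 1.08 for KLF5 (0.463 to 1.69), 1.49 for REST (0.901 to 2.07) and 0.568 for RFX2 (0.0564 to 1.08). Without strata the differences were lower, at 6.12 for JUND, 3.21 for MYC, 2.29 for HNF4A, 0.601 for KLF5 and 0.813 for REST. That of RFX2 was then 0.244 (-0.0944 to 0.582). No other alternative was run for gained peaks.

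The sites with the most factors had 5 of the 6, all but RFX2, and there were 3 of them, each with NIPBL as well. At chr1:33455926-33459949, CTCF had a strength of 830 under control siRNA and 63.5 under siRAD21 and RAD21 884 and 60.6, while SMC3 (482) and NIPBL (50.1) were lost. All 5 factors stayed listed there, HNF4A at 224 and 138, JUND at 229 and 137, KLF5 at 135 and 109, MYC at 88.3 and 75.2 and REST at 269 and 87.7. At chr19:48980717-48982217, RAD21 (567) and SMC3 (338) were lost, HNF4A (109 and 65.0) and KLF5 (127 and 64.6) were kept, and JUND, MYC and REST were not. At chr22:35921832-35925340, RAD21 had 130 and 112, HNF4A 342 and 145, JUND 103 and 247 and MYC 162 and 291, while SMC3, KLF5, REST and NIPBL were lost. H3K4me1 was kept at each of the 3, and SMC3 at none.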

How the data were processed

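ChIP-seq peak lists of 11 targets under 2 siRNAs in GP5d cells were used, 22 lists from 28 libraries, and the 6 IgG libraries were not analysed here. Reads went through CASAVA 1.4, BWA and MACS 1.4 on hg18, per the submitters' processing notes. The authors called each library alone with MACS 1.4.0rc2 at a p cutoff of 1e-05 against an IgG library, per the file headers. Each deposited peak has a count of tags, a score of −10 × log10 p, a ratio (fold enrichment over background) and, per the labels, an FDR in percent. The FDR was read from the unnamed last of 10 columns under 9 names, because its number of values under 5 equals the labels' number in all 22 lists.

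All deposited peaks were used. Shares have exact Clopper-Pearson intervals. Differences at like strength are averages over 5 strata of the control score with Mantel-Haenszel weights and Sato intervals. All intervals are 95% intervals and cover counting error only, and with 1 library per target and siRNA no test was made. Sites that share a peak are not independent. The overlap and stratum code was tested on simulated data. The sites and comparisons were chosen with earlier results of these data known. The regions named are the strongest by CTCF score in each state with and without a factor, the 3 with the most factors and those nearest the H3K4me1 threshold, none on chromosome 8, and the text gives part of them. No genes or sequences are given for the regions, since no hg18 genome was used here. Python 3.11.15, numpy 2.4.6, pandas 2.3.3, scipy 1.17.1 and matplotlib 3.10.9 were used. Alternatives were an FDR under 5%, a score of at least 100, summits within 250 bp, H3K4me1 over the CTCF summit, equal numbers of the strongest peaks, 20 strata, no strata, strata of fold enrichment, SMC3 kept in place of RAD21 kept and leaving out JUND or sites with 8 or more targets.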

Additional observations from a re-analysis of the deposited data

How the results depend on the processing

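The kept share was highest for CTCF and lowest for SMC3 of the 3 proteins in each selection of peaks tried. With an FDR under 5%, 4232 sites remained, and CTCF was kept at 85.4%, RAD21 at 50.1%, SMC3 at 18.2% and H3K4me1 at 84.7%, with CTCF but no cohesin at 37.5% and a control factor at 35.7%. With a score of at least 100 there were 4151 sites and the same values were 74.2%, 49.7%, 25.4%, 70.0%, 29.0% and 21.3%. With equal numbers of the strongest peaks CTCF was kept at 93.3%, RAD21 at 86.4% and SMC3 at 66.2%. With summits within 250 bp CTCF was kept at 79.4%, H3K4me1 at 73.1%, and a factor was present at 19.7%. With H3K4me1 over the CTCF summit, H3K4me1 was kept at 72.0% and a factor was present at 41.0%, and without MYC, added after seeing the data, a factor was present at 27.2%.

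For RAD21 kept, inside minus outside H3K4me1 was 4.69 without strata and 6.70 with strata of fold enrichment. For SMC3 it was 5.59 and 6.67, and -1.45 with 20 strata and -1.64 by summits. The difference with minus without a factor was, without strata, -2.15 for CTCF, -4.90 for RAD21 and -2.42 for SMC3. With strata of fold enrichment it was 3.13 for RAD21 and 3.61 for SMC3, by summits -3.72 for SMC3, and without MYC -1.47 for CTCF, -2.77 for RAD21 and -2.79 for SMC3. For H3K4me1 with RAD21 kept minus lost it was -1.42 without strata, 0.581 with strata of fold enrichment, 0.898 at FDR under 5% and 1.76 by summits. Alternatives for single factors and for 3 or more factors were also added after seeing the data. There, of the differences whose interval excluded 0 in one of the settings compared, the sign turned with strata of fold enrichment for SMC3 at 3 or more factors (0.951), RAD21 with KLF5 (1.03) and MYC (3.01) and SMC3 with MYC (4.30), at FDR under 5% for RAD21 with KLF5 (0.270), and without strata for RAD21 (0.756) and SMC3 (2.91) with NIPBL. It also turned where both intervals included 0, with strata of fold enrichment for SMC3 with KLF5 (2.44), at FDR under 5% for CTCF at 3 or more factors (3.48) and SMC3 with RFX2 (-6.87), by summits for CTCF at 3 or more factors (2.17), and without strata for SMC3 with REST (4.06), RAD21 (-1.73) and SMC3 (-0.116) with RFX2 and NIPBL kept with RAD21 (-1.42). The RAD21 differences inside minus outside H3K4me1 (0.372 at FDR under 5%) and with minus without a factor (0.0356 at FDR under 5%, 0.673 without sites of 8 or more targets, 1.28 over all CTCF-cohesin sites, the last added after seeing the data) did so too, as did SMC3 with minus without a factor (0.0628 without sites of 8 or more targets). The cause of these changes was not tested.

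Strata by both the protein's own score and the CTCF score could not be made for CTCF, and FDR under 5% gave no value for JUND and NIPBL. No paired analysis was possible because each target has 1 library per siRNA and the labels give no replicate numbers. The siRAD21 library was shallower than its control for 9 of 11 targets, not for JUND and MYC, and the part of depth in the kept shares was not tested.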

Other observations

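The same rule applied to the siRAD21 lists gave 2776 sites, of which 67.0% (65.2 to 68.7) overlapped a control site. In the control lists, 95.5% had CTCF, 95.3% had SMC3 and 2638 sites had RAD21, while 72.0% (70.3 to 73.6) had control H3K4me1. Of the 6862 control sites, 27.0% overlapped a siRAD21 site. A siRAD21 factor peak was at 39.2% of the siRAD21 sites (37.4 to 41.0).

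The share of CTCF-cohesin peaks that lay within H3K4me1 differed among chromosomes. It was 16.0% on chromosome 18 (13.1 to 19.3), 17.3% on X (15.2 to 19.7) and 19.2% on chromosome 4 (17.1 to 21.3), and 31.9% on chromosome 17 (29.2 to 34.7) and 32.0% on chromosome 19 (29.0 to 35.1). RAD21 was kept at 54.6% of the 269 sites on chromosome 4 and 68.7% of the 364 on chromosome 17. Copy number and gene density were not analysed here.

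At CTCF peaks within H3K4me1 that lacked both subunits, JUND was listed at 4.98% under control siRNA and 27.4% under siRAD21. Over all control CTCF peaks these shares were 1.95% and 6.95%. The siRAD21 JUND library held 2.02 times the tags of its control, and the part of depth was not tested. RAD21 was listed under siRAD21 at 8.20% of the peaks that lacked both subunits, beside 5.27% of all control CTCF peaks without RAD21. MYC was kept at 44.1% of its 808 peaks at these cohesin-free sites, against 26.3% at the sites with cohesin. Its share over all control CTCF peaks with MYC was 32%. HNF4A (46.3% against 38.5%), JUND (56.2% against 40.9%), KLF5 (17.9% against 9.93%) and NIPBL (37.4% against 14.1%) also had higher shares without cohesin. REST (48.5% against 56.9%) and RFX2 (17.0% against 19.3%) had lower ones. These shares were not matched for control strength.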
